A study of Mus musculus with 9 samples.

Results

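The type 2 cytokine genes examined here were Il4, Il5, Il9 and Il13, taken as the rows of a raw count matrix from mouse mast cells whose Ensembl identifiers map to these symbols. All 4 were found among the 47643 genes of the matrix. Il4 and Il13 were well covered, with 8872 and 47334 counts over the 9 libraries. Il9 had 109 counts and Il5 had 19, and both lay below the filter of a median CPM above 1, where CPM is a gene's counts scaled to a common library total, applied to the whole matrix.

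Type 2 cytokines are the secreted proteins through which mast cells, basophils, T helper cells and innate lymphoid cells drive allergic inflammation. In a mast cell, binding of antigen by IgE on the high-affinity IgE receptor raises calcium and activates MAP kinases, and the transcription factors NFAT and AP-1 then act on the cytokine genes together with GATA factors. IL-4 promotes IgE class switching and IL-13 acts on mucus-producing and smooth muscle cells, while IL-5 supports eosinophils and IL-9 acts on mast cells and T cells.

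The libraries came from bone marrow-derived mast cells (BMMCs) of C57BL/6 mice, grown in medium conditioned by WEHI-3 cells, a source of IL-3. There were 3 groups of 3 libraries each, named Control, IgE+BSA and IgE+BSA+Luteolin, and the study asked what luteolin, a plant flavone, does to mast cells activated through IgE. The Control cells are described as untreated, the IgE+BSA cells as stimulated with IgE against DNP and DNP-BSA as antigen, and the third group as receiving luteolin as well. The luteolin treatment is given as 10 µM for 24 h in a protocol text given for all 9 samples, Control included. The order of luteolin and antigen is described in conflicting ways, and a vehicle for the stimulated cells without luteolin is mentioned but not named. The length of the stimulation and the number of mice behind the libraries are not given in the sources used here.

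Total counts ran from 9515004 to 24605689 per library, so that 3 counts corresponded to between 0.122 and 0.315 CPM. The library labelled Control replicate 1 stood apart from its group. Its Pearson correlation of log2 CPM over genes was 0.954 with the mean profile of the other Control libraries and 0.986 with that of the IgE+BSA+Luteolin libraries. Comparisons with Control are therefore also given without it. Mast cell markers were present in every library, and the 10 of them summed to between 53460 and 82250 CPM in Control, 57600 and 64410 CPM in IgE+BSA, and 69140 and 80390 CPM with luteolin, where 6 were called higher and 3 lower than in IgE+BSA, beside 18.1% and 21.9% of all genes. The 9 markers of T cells or innate lymphoid cells summed to between 32.0 and 39.4 CPM in Control, 40.1 and 55.2 CPM in IgE+BSA, and 26.3 and 31.1 CPM with luteolin, in the same order of groups as Il4. Thy1, Rora and Il7r were the 3 of them that passed the filter, and Il7r (17.2, 22.8 and 6.65 CPM in Control, IgE+BSA and IgE+BSA+Luteolin) was called lower with luteolin than in IgE+BSA, at a log2 fold change of -1.77 (edgeR adjusted p = 1.01e-06). Thy1 had 16.8, 20.0 and 20.0 CPM and Rora 2.10, 3.30 and 2.16 CPM in that order of groups, and neither was called with all libraries. Icos, below the filter, had 21, 15 and 24 counts. Without Control replicate 1, Thy1 was called higher than in Control in IgE+BSA and with luteolin (22.6% and 29.9% of all genes). Il7r was then called lower than in Control with luteolin (30.1%). Of the T cell receptor complex genes on the list, Cd3e had no counts, Cd3d at most 1 and Trac at most 3 in any group, and Cd3g had 1, 17 and 8. The part of such cells in the cytokine levels was not tested. The 6 neutrophil markers summed to 196 CPM in Control replicate 1, 6.97 CPM in Control replicate 2 and 5.69 CPM in Control replicate 3, and to between 130 and 179 CPM in the 6 stimulated libraries. The other lists summed to between 24.9 and 56.1 CPM for 5 eosinophil markers, 247 and 308 CPM for 6 macrophage markers and 2.40 and 3.48 CPM for 4 B cell markers. Without Control replicate 1, all 6 neutrophil markers were called higher than in Control both in IgE+BSA and with luteolin, beside 22.6% and 29.9% of all genes. Fits without that library keep only Control replicates 2 and 3, which were low in these markers. Treatment and cell make-up therefore cannot be told apart in those fits. Of the 4 eosinophil markers tested, Prg2 and Epx were likewise called higher in IgE+BSA and with luteolin, Siglecf was called lower with luteolin (beside 30.1% of all genes) and Ccr3 was not called. Prg2, Epx and the neutrophil markers Elane and Camp had at most 0.206 CPM in Control replicates 2 and 3. They passed the CPM filter only through the other libraries, so their calls are rises from near 0. Of the 10 mast cell markers, 3 were called higher and 3 lower in IgE+BSA without Control replicate 1 (22.6% and 22.4% of all genes). With luteolin 7 were higher and 2 lower (29.9% and 30.1%). Of the macrophage markers, Csf1r was then higher and Cd68 lower in both groups, and Adgre1 higher with luteolin. In these bulk libraries fewer cells making a transcript and less of it per cell cannot be told apart.

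Il4, Il13 and Il5 lie in one cluster on chromosome 11, and their promoters are shown because neighbours in it differed widely in level. On mm10 (GRCm38), Il4 (ENSMUSG00000000869) spans chr11:53602982-53618669 on the minus strand with 4 annotated transcripts, and Il13 (ENSMUSG00000020383) spans chr11:53631324-53634702 on the same strand. Il5 (ENSMUSG00000036117) spans chr11:53720794-53725106 on the plus strand. The gap between Il4 and Il13 is 12654 bp and that between Il13 and Il5 is 86091 bp, the latter occupied by Rad50, a DNA repair gene. Il9 (ENSMUSG00000021538) lies elsewhere, at chr13:56479277-56482246 on the minus strand. The 250 bases before each start site, from RefSeq on GRCm38.p6, are printed 5′ to 3′ on the strand of the gene. Capitals mark GGAAA, the core of the sequence bound by NFAT, or its reverse complement TTTCC.
Il4 promoter, chr11:53618666-53618915, minus strand: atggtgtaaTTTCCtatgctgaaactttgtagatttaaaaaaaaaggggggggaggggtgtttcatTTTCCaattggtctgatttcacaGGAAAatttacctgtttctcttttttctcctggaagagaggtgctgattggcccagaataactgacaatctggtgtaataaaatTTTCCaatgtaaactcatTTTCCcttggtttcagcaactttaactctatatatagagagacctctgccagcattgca
Il13 promoter, chr11:53634703-53634952, minus strand: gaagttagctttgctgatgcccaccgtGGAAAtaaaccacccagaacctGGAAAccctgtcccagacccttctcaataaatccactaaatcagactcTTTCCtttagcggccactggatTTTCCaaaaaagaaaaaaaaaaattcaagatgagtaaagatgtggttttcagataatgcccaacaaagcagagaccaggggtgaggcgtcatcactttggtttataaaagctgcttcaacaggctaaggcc
Il5 promoter, chr11:53720544-53720793, plus strand: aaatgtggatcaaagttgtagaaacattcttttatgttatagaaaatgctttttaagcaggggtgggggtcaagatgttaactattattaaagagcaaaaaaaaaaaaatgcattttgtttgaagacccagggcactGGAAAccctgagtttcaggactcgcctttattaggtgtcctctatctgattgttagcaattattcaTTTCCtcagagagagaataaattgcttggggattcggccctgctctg
The Il4 window held GGAAA 5 times counting both strands, and 0.39% of the 32851 windows of this length in the RefSeq table held it as often. The Il13 window held it 4 times, as did 1.59% of all windows or more often, and the Il5 window 2 times, against 21.4%. The Il9 window, at chr13:56482258-56482507, held it 3 times, against 6.39%, and at least 1 match stood in 55.6% of all windows. A second RefSeq start of Il4, further into the gene, had no match in its window at chr11:53617339-53617588. The Il13 window also held AGATAA, a sequence of the GATA type, 1 time (9.99% of windows), and the Il9 window held the AP-1 sequence TGANTCA 1 time (6.75%). TATAAA, the TATA box, stood 2 times in the Il13 window, overlapping on opposite strands, as in 2.10% of windows or more often, and GCGNGGGCG, bound by EGR proteins, stood in none of these windows against 4.70% of all. These matches describe letters in the windows, and no binding was measured.

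Il4, which encodes the cytokine that switches B cells to IgE, was raised in IgE+BSA cells and was not called different from Control with luteolin. Its level was 30.9, 28.1 and 22.7 CPM in Control replicates 1, 2 and 3. In the IgE+BSA replicates it was 93.1, 89.1 and 98.3 CPM, and in the IgE+BSA+Luteolin replicates 22.6, 24.2 and 21.9 CPM. All IgE+BSA libraries lay above all others, whereas the IgE+BSA+Luteolin and Control libraries overlapped, with 2 of the 3 luteolin libraries just below the lowest Control library. The group means were 27.2 ± 4.20 CPM in Control, 93.5 ± 4.58 CPM in IgE+BSA and 22.9 ± 1.19 CPM with luteolin (SD, n = 3 each).

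In edgeR's quasi-likelihood test, Il4 rose 3.43-fold in IgE+BSA over Control, a log2 fold change of 1.78 ± 0.14 (SE) with an adjusted p of 0.00117. In that comparison 2.25% of the 11560 genes tested were called higher and 1.02% lower at an adjusted p under 0.05. With luteolin, Il4 fell by 2.02 ± 0.07 on the log2 scale from its IgE+BSA level, to 24.6% of it, with an edgeR adjusted p of 4.80e-13. There, 21.9% of genes were called lower and 18.1% higher. Ranked by fold change, Il4 stood 80 from the top in the comparison of IgE+BSA with Control and 174 from the bottom in that of IgE+BSA+Luteolin with IgE+BSA. Against Control, the luteolin group had a log2 difference in Il4 of -0.25 ± 0.14, which did not pass the edgeR test (adjusted p = 0.330). Without Control replicate 1, the Il4 values were 1.86 for IgE+BSA against Control and -0.13 for luteolin against Control, with the same calls.

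**Figure D1:**
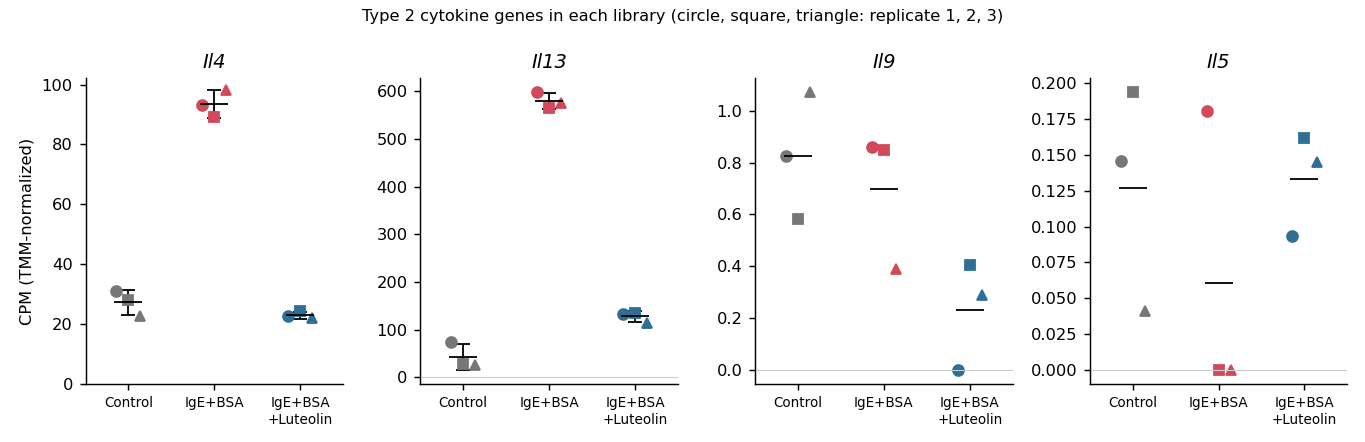
TMM-normalized CPM (linear axes that differ between panels) of Il4, Il13, Il9 and Il5 in each of the 9 libraries. Points are libraries, with a circle, square and triangle for replicates 1, 2 and 3, horizontal lines are group means of 3, and whiskers on Il4 and Il13 are SD. Il4 and Il13 stand highest in the IgE+BSA libraries, at 89.1 to 98.3 and 565 to 598 CPM, and Il9 and Il5 stay near or below 1 CPM.

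Il13, whose product acts on airway epithelium and smooth muscle, rose the most of the 4 genes and with luteolin stayed above every Control library. Control replicates 1, 2 and 3 had 73.8, 28.9 and 25.3 CPM of Il13. The IgE+BSA replicates had 598, 565 and 576 CPM, and the IgE+BSA+Luteolin replicates 134, 135 and 114 CPM. No pair of groups overlapped, and Control replicate 1 lay well above the other Control libraries. Group means were 42.7 ± 27.0 CPM in Control, 579.5 ± 17.1 CPM in IgE+BSA and 127.7 ± 12.1 CPM with luteolin (SD, n = 3 each). The Control library with the most Il13 was also the one with 196 CPM of neutrophil markers, and the part of cell composition in its level was not tested.

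The rise of Il13 in IgE+BSA over Control was 13.5-fold, a log2 fold change of 3.75 ± 0.43 (SE), with an edgeR adjusted p of 0.00515. This was number 10 from the top of the 11560 fold changes. Without Control replicate 1 the Il13 value was 4.38 ± 0.09, in a comparison in which 22.6% of genes were then called higher. With luteolin, Il13 fell by 2.18 ± 0.07 on the log2 scale from IgE+BSA, to 22.1% of that level (edgeR adjusted p = 8.82e-14), and stood 152 from the bottom. Il4 and Il13 thus both passed the test in the same direction in each of these comparisons.

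Luteolin-treated stimulated cells had 2.98-fold more Il13 than Control, a log2 difference of 1.58 ± 0.39 that missed the threshold in edgeR (adjusted p = 0.0803). In this comparison 0.285% of the genes tested were called higher and 2.75% lower. The call changed with the fit. Without Control replicate 1 the difference in Il13 was 2.24 ± 0.10 with an edgeR adjusted p of 1.63e-11, and 29.9% of genes were called higher. With all libraries kept, Il13 also passed in DESeq2 (adjusted p = 0.00117), and in edgeR with all 9 libraries in one fit (adjusted p = 0.0195), with a replicate block (adjusted p = 0.0485) and without a filter beyond 1 count (adjusted p = 0.00208). Of the rise in mean Il13 CPM from Control to IgE+BSA, 15.8% remained with luteolin. Taking each Control library alone as the baseline gave 10.7%, 17.9% and 18.5% for replicates 1, 2 and 3. The same quantity for Il4 was -6.49%, and it lay between -12.8% and 0.369% over the single Control libraries.

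**Figure D2:**
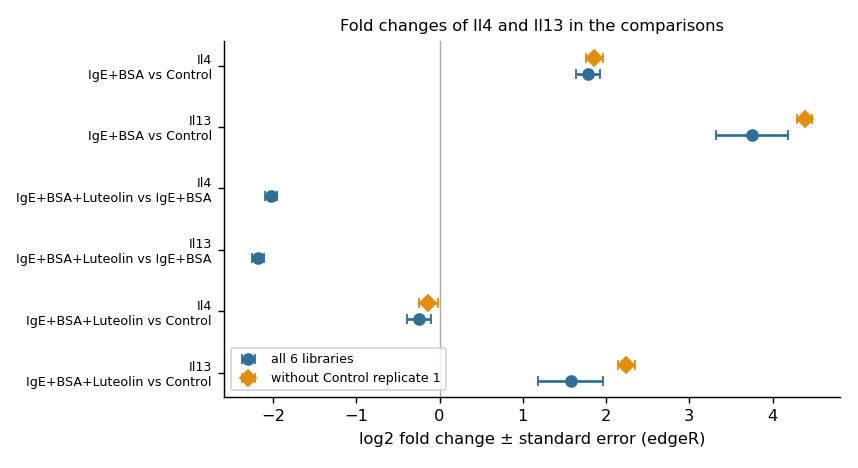
Log2 fold changes of Il4 and Il13 from edgeR (x axis) in the 3 comparisons, with bars of 1 standard error; circles use all 6 libraries and diamonds leave out Control replicate 1. The Il13 difference between IgE+BSA+Luteolin and Control moves from 1.58 to 2.24 without that library, while that of Il4 stays close to 0.

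The ratio of Il13 to Il4 counts does not depend on library scaling and compares both genes directly. It was 2.38, 1.03 and 1.12 in Control replicates 1, 2 and 3. In the IgE+BSA replicates it was 6.42, 6.33 and 5.86, and in the IgE+BSA+Luteolin replicates 5.92, 5.58 and 5.18. Every stimulated library, with or without luteolin, had a higher ratio than every Control library. The mean log2 ratio was 2.15 higher in IgE+BSA and 1.99 higher in IgE+BSA+Luteolin than in Control, each with a two-sided exact permutation p of 0.1. With Control replicate 1 left out these differences were 2.53 and 2.37, each with an exact permutation p of 0.2. A p of 0.1 is the smallest that 3 libraries against 3 can give, so no difference in ratio could pass 0.05. Between IgE+BSA+Luteolin and IgE+BSA the groups overlapped, and the log2 ratio differed by -0.16 (exact permutation p = 0.2). The Il13 to Il4 ratio with luteolin was therefore near that of IgE+BSA cells, while Il4 was at 24.6% and Il13 at 22.1% of the IgE+BSA level.

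**Figure D3:**
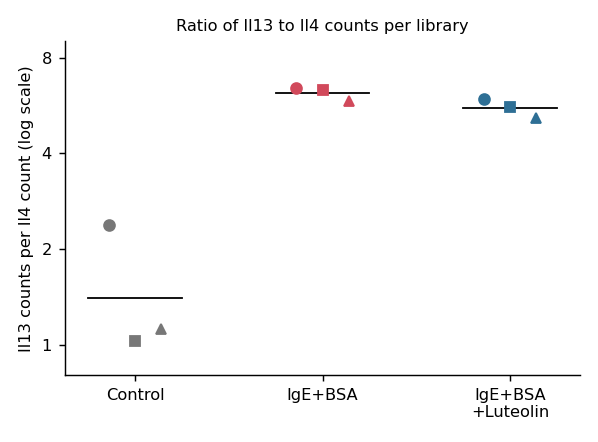
Il13 counts per Il4 count in each library (log axis), with replicates 1, 2 and 3 as circle, square and triangle and the geometric mean of each group as a line. Control libraries lie between 1.03 and 2.38, and all stimulated libraries, with or without luteolin, between 5.18 and 6.42.

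Il9, a growth factor for mast cells and T cells, was close to the limit of measurement. It had 17, 6 and 26 counts in Control replicates 1, 2 and 3, 19, 17 and 8 counts in IgE+BSA, and 0, 10 and 6 counts in IgE+BSA+Luteolin. The 0 in IgE+BSA+Luteolin replicate 1 allows a level of up to 0.141 CPM. Over pooled libraries the level was 0.935 CPM in Control (95% Poisson interval 0.692 to 1.24), 0.657 CPM in IgE+BSA (0.477 to 0.882) and 0.242 CPM with luteolin (0.139 to 0.393), and these intervals cover counting error only. The luteolin libraries overlapped those of IgE+BSA and lay below all Control libraries.

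Il9 was tested in an edgeR fit of the 15331 genes with at least 20 counts in total. Its log2 fold change was -0.24 ± 0.49 for IgE+BSA against Control (adjusted p = 0.850), where 2.38% of genes were called in either direction. For IgE+BSA+Luteolin against IgE+BSA it was -1.53 ± 0.74 (edgeR adjusted p = 0.122), where 31.9% were called. Against Control, Il9 with luteolin differed by -1.77 ± 0.85 (edgeR adjusted p = 0.265), where 2.22% were called. Leaving out Control replicate 1 gave -0.32 for IgE+BSA and -1.79 for luteolin against Control (edgeR adjusted p = 0.707 and 0.0668). The latter difference ranged from -2.46 without IgE+BSA+Luteolin replicate 2 to -1.21 without IgE+BSA+Luteolin replicate 1. A rise of Il9 with stimulation was not detectable at this depth, and its lower counts with luteolin did not pass in edgeR, although they did against IgE+BSA in limma (adjusted p = 0.0460).

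Il5, the main growth and survival factor of eosinophils, had too few counts to compare between groups. Control replicates 1, 2 and 3 had 3, 2 and 1 counts, the IgE+BSA replicates 4, 0 and 0, and the IgE+BSA+Luteolin replicates 2, 4 and 3. No library exceeded 4 counts and all groups overlapped. The planned limit for calling a gene too low to measure was 3 counts in any library, which IgE+BSA replicate 1 and IgE+BSA+Luteolin replicate 2 just passed. The pooled 95% Poisson intervals were 0.0420 to 0.249 CPM in Control, 0.0163 to 0.153 CPM in IgE+BSA and 0.0623 to 0.259 CPM with luteolin. The 2 IgE+BSA libraries without a count allow up to 0.139 and 0.138 CPM. With 19 counts in all, Il5 also missed the filter of 20 counts and was not tested there. At these levels the libraries cannot show whether Il5 responded.

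Between genes, levels are compared as RPKM, the CPM divided by exon length in kilobases. In IgE+BSA cells the order was Il13 at 480.9 ± 14.2, Il4 at 76.2 ± 3.73, Il9 at 1.31 ± 0.50 and Il5 at 0.0392 ± 0.0679 RPKM (SD, n = 3 each). In Control the means were 35.4 ± 22.4 RPKM for Il13 and 22.2 ± 3.43 RPKM for Il4. Control replicates 1, 2 and 3 had 61.3, 24.0 and 21.0 RPKM of Il13 and 25.2, 22.9 and 18.5 RPKM of Il4. Il13 was thus the higher in each, by little in replicates 2 and 3. With luteolin the mean levels were 106 ± 10.0 RPKM for Il13 and 18.7 ± 0.97 RPKM for Il4, which are separated by more than their spread. Il9 lay at 1.54 ± 0.46 RPKM in Control and 0.432 ± 0.389 RPKM with luteolin, and Il5 at 0.0826 RPKM in Control and 0.0868 RPKM with luteolin.

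The genes whose log2 CPM followed each cytokine most closely over the 9 libraries were sought among 11687 genes. Nearest to Il4 were Atf3 (Pearson r = 0.994), Egr2 (0.993), Mapkapk2 (0.993), Marcksl1 (0.992) and Zfp703 (0.991). Atf3 and Egr2 encode transcription factors induced early after stimulation, and both had group means like those of Il4 in order, with Egr2 at 70.8, 1118 and 45.3 CPM in Control, IgE+BSA and IgE+BSA+Luteolin. Nearest to Il13 were Ptgs2 (0.992), Ddx21 (0.991), Csrp1 (0.991), Perp (0.991) and M6pr (0.990). Ptgs2, the inducible cyclooxygenase, had 19.3, 283 and 76.5 CPM in the same order of groups, with luteolin in between as for Il13. For the sparse Il9 the highest value was 0.926, for Rassf1. These correlations describe libraries that share groups and scaling, and by Spearman's rho 2 of the 5 genes of Il4, 2 of Il13 and 1 of Il9 were again among the nearest.

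Il4 and Il13 lie among genes of which few were expressed. Of 27 annotated genes with a base within 200 kb of Il4, Il13 or Il5, 7 passed the CPM filter, and none of them was called in IgE+BSA against Control by edgeR, with a median log2 fold change of -0.01 against 0.02 over all genes, of which 2.25% were called higher and 1.02% lower. When Control replicate 1 was left out, Uqcrq was called higher and Aff4, Irf1 and Kif3a lower, beside 22.6% and 22.4% of all genes. Rad50, between Il13 and Il5, had 71.1 ± 7.11, 76.3 ± 4.67 and 77.8 ± 7.49 CPM in Control, IgE+BSA and IgE+BSA+Luteolin (SD, n = 3 each). Kif3a, a kinesin gene on the far side of Il4, had 16.8 ± 1.58, 14.3 ± 0.56 and 17.0 ± 1.40 CPM (SD, n = 3 each). With luteolin 2 of the 7 were called lower than in IgE+BSA, beside 21.9% of all genes, namely Irf1, an interferon regulatory factor, by a log2 fold change of -1.07 ± 0.12 (edgeR adjusted p = 3.73e-06), and Aff4, an elongation factor scaffold, by -0.57 ± 0.07 (edgeR adjusted p = 4.26e-06). Irf1 was also called lower than in Control, at -1.50 ± 0.16 (edgeR adjusted p = 0.00869), joined by Aff4, with Uqcrq higher, when Control replicate 1 was left out (30.1% of all genes lower, 29.9% higher). Near Il9, 2 of 10 genes were tested, and Fbxl21 was called lower with luteolin than in IgE+BSA, at -1.16 ± 0.22 (edgeR adjusted p = 0.000634). The other, Tgfbi, had log2 differences from Control of 0.97 in IgE+BSA and 0.99 with luteolin that were not called, and was called higher in both without Control replicate 1, at 1.46 and 1.51 (edgeR adjusted p = 0.000612 and 0.000135), when Fbxl21 was also called lower with luteolin.

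**Figure D4:**
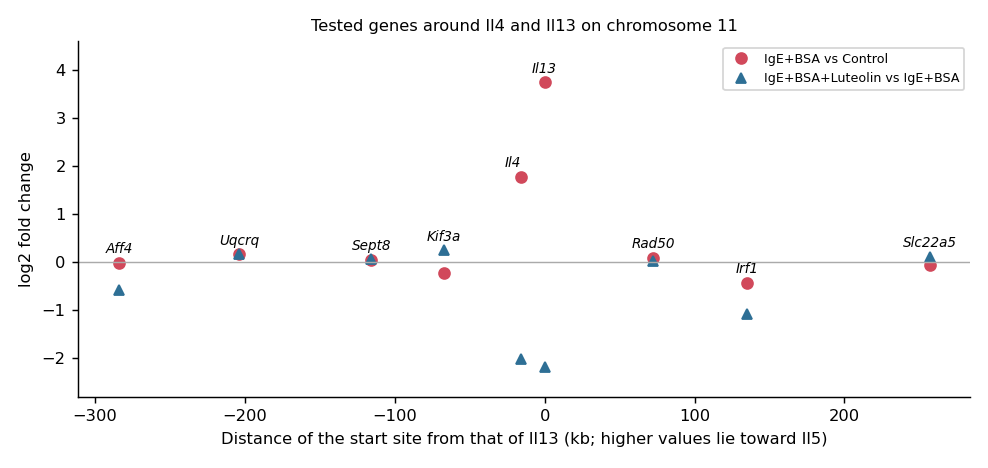
Log2 fold changes from edgeR (y axis) of Il4, Il13 and the 7 tested neighbours on chromosome 11 against the distance of each start site from that of Il13 in kb (x axis). Circles are IgE+BSA against Control and triangles IgE+BSA+Luteolin against IgE+BSA. Il4 (1.78) and Il13 (3.75) stand above their neighbours in the former, and lie lowest in the latter at -2.02 and -2.18.

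The list for the receptors of these cytokines held 8 genes, counting Csf2rb2, a paralogue of Csf2rb that is not itself a receptor chain for them. Of the 8 genes, 6 were tested, and none was called in either comparison with Control, in which 2.25% of all genes were called higher and 1.02% lower in IgE+BSA, and 0.285% higher and 2.75% lower with luteolin. Leaving out Control replicate 1, Il2rg was called higher and Il4ra, Csf2rb and Il9r lower in IgE+BSA, and likewise with luteolin, where Csf2rb2 was lower as well. Over all genes the shares were then 22.6% higher and 22.4% lower in IgE+BSA, and 29.9% higher and 30.1% lower with luteolin. Il4ra, the chain shared by the IL-4 and IL-13 receptors, had 1179 ± 237 CPM in Control, 718 ± 45.3 CPM in IgE+BSA and 714 ± 1.58 CPM with luteolin (SD, n = 3 each). Il13ra1, the partner chain for IL-13, stayed below the filter with 21, 35 and 35 counts in Control, IgE+BSA and IgE+BSA+Luteolin. With luteolin, Csf2rb, the common beta chain used by IL-5, and its mouse paralogue Csf2rb2 were called lower than in IgE+BSA, beside 21.9% of all genes, at log2 fold changes of -0.23 and -0.13 (edgeR adjusted p = 0.00255 and 0.0458). Reads of these near-identical paralogues may be split between them by the counting.

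Downstream of those receptors, 12 of 13 JAK-STAT genes were tested. Socs3 and Cish, which encode feedback inhibitors of cytokine signalling, were called higher in IgE+BSA than in Control, at log2 fold changes of 1.17 ± 0.22 and 1.03 ± 0.13 (edgeR adjusted p = 0.0402 and 0.00884), beside 2.25% of all genes. With luteolin 5 of the 12 were called lower and 1 higher than in IgE+BSA, beside 21.9% and 18.1% of all genes, among them Socs3 at -1.86 ± 0.08 and Cish at -1.03 ± 0.06 (edgeR adjusted p = 1.12e-11 and 1.00e-09). Stat6, the transcription factor activated by IL-4 and IL-13, had 129 ± 7.41, 129 ± 3.58 and 131 ± 3.45 CPM in Control, IgE+BSA and IgE+BSA+Luteolin (SD, n = 3 each). None of the 12 was called between IgE+BSA+Luteolin and Control with all libraries, and 5 were called lower without Control replicate 1, beside 30.1% of all genes. In IgE+BSA against Control without that library, 3 were called higher and 3 lower, beside 22.6% and 22.4% of all genes.

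Among transcription factors known to act on the type 2 cytokine genes, 20 of 21 were tested. Jun, Fos, Egr1 and Egr2 were called higher in IgE+BSA than in Control and none was called lower, beside 2.25% and 1.02% of all genes, and the list median was 0.25 on the log2 scale. The counts were 10 higher and 2 lower without Control replicate 1, when 22.6% of all genes were higher and 22.4% lower. The increases were 2.47 ± 0.32 for Jun, 3.25 ± 0.33 for Fos, 1.95 ± 0.29 for Egr1 and 3.98 ± 0.15 for Egr2, with edgeR adjusted p between 4.88e-05 and 0.0179. With luteolin 12 of the 20 were called lower and 3 higher than in IgE+BSA, beside 21.9% and 18.1% of all genes. The 4 largest changes were -4.62 ± 0.07 for Egr2, -3.58 ± 0.27 for Fosl1, -3.04 ± 0.09 for Jun and -2.33 ± 0.18 for Bcl6, whereas Fos changed by -0.69 ± 0.08 and Egr1 by -0.79 ± 0.07 (edgeR adjusted p at most 4.35e-06). Nfatc1, an NFAT gene, changed by -0.37 ± 0.06 with luteolin (edgeR adjusted p = 7.57e-05), and Gata2, a mast cell GATA factor, had a difference of -0.05 ± 0.05 (edgeR adjusted p = 0.454). Against Control, Fos was called higher with luteolin at 2.56 ± 0.30, and Egr2 and Bcl6 lower at -0.65 ± 0.13 and -2.65 ± 0.51 (edgeR adjusted p = 0.0115, 0.0480 and 0.0434), beside 0.285% of all genes higher and 2.75% lower. In that comparison 5 were higher and 7 lower without Control replicate 1, beside 29.9% and 30.1% of all genes.

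The 7 receptors through which mast cells are induced to make these cytokines were all tested, and none was called in either comparison with Control, beside 2.25% of all genes higher and 1.02% lower in IgE+BSA, and 0.285% higher and 2.75% lower with luteolin. Leaving out Control replicate 1, 2 of the 7 were called higher and 3 lower in IgE+BSA (22.6% and 22.4% of all genes), and 4 higher and 2 lower with luteolin (29.9% and 30.1%). With luteolin the IgE receptor genes Fcer1a, Ms4a2 and Fcer1g were called higher than in IgE+BSA, at 0.42 ± 0.06, 0.30 ± 0.05 and 0.29 ± 0.06 on the log2 scale (edgeR adjusted p at most 0.00116), and none of the list was called lower, beside 18.1% of all genes higher and 21.9% lower. Il1rl1, the IL-33 receptor, had 5297 ± 251 CPM in IgE+BSA and 4971 ± 102 CPM with luteolin (SD, n = 3 each).

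Other cytokine genes placed Il4 and Il13 in a wider response. Of 14 listed, 8 passed the CPM filter, and Il6, Csf1, Csf2, Lif, Tnf and Areg were called higher in IgE+BSA than in Control, with a list median of 3.12 on the log2 scale and beside 2.25% of all genes. All 8 were called higher without Control replicate 1, with a median of 4.20 and beside 22.6% of all genes. Among them, Il3 had 0.341, 0 and 0 CPM in Control replicates 1, 2 and 3 and passed the CPM filter only through the stimulated libraries. Its call is a rise from no counts and carries no weight. Tnf changed by 5.67 ± 0.32 (edgeR adjusted p = 0.000206), against the 3.75 of Il13, and by 6.04 ± 0.11 without Control replicate 1. Csf2, at 4.28, 0.0969 and 0.124 CPM in Control replicates 1, 2 and 3 and 58.0 ± 1.92 CPM in IgE+BSA (SD, n = 3), changed by 5.14 ± 0.92 with that library (edgeR adjusted p = 0.0334) and by 8.85 ± 0.21 without it. With luteolin 7 of the 8 were called lower than in IgE+BSA, beside 21.9% of all genes, with Tnf changed by -4.18 ± 0.08, Csf1 by -3.95 ± 0.10 and Csf2 by -3.81 ± 0.10 (edgeR adjusted p at most 1.35e-14), which were larger falls than those of Il4 and Il13. Il3, the eighth, had 2.12 ± 0.95 CPM in IgE+BSA and 1.75 ± 0.35 CPM with luteolin (SD, n = 3 each). Compared with Control, the luteolin group was called higher for Tnf, at 1.49 ± 0.27 (edgeR adjusted p = 0.0374), and lower for Csf1, at -2.31 ± 0.26 (edgeR adjusted p = 0.0106), beside 0.285% of all genes higher and 2.75% lower. Without Control replicate 1, 7 were called higher, with Il3 again from no Control counts, and Csf1 lower, beside 29.9% and 30.1% of all genes. The 4 basophil markers did not move together. Their sum lay between 1430 and 1815 CPM in Control, 2309 and 2390 CPM in IgE+BSA, and 1423 and 1530 CPM with luteolin, and with all libraries only Cd69, an activation marker that mast cells also carry, was called in IgE+BSA against Control, where it was higher. Cd69 had 482, 1391 and 396 CPM in Control, IgE+BSA and IgE+BSA+Luteolin, Cd200r3 had 918.5, 637 and 728 CPM, and Itga2 had 1.39, 2.25 and 1.68 CPM. Mcpt8, a basophil protease, had 431.7, 21.8 and 18.7 CPM in Control replicates 1, 2 and 3, and 306 ± 20.7 CPM in IgE+BSA and 353 ± 21.7 CPM with luteolin (SD, n = 3 each). Without Control replicate 1 it was called higher than in Control at 3.89 ± 0.10 in IgE+BSA and 4.14 ± 0.10 with luteolin (edgeR adjusted p = 1.29e-12 and 7.65e-15), and Cd200r3 was called lower in both. The part of basophils in the cytokine levels was not tested.

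**Figure D5:**
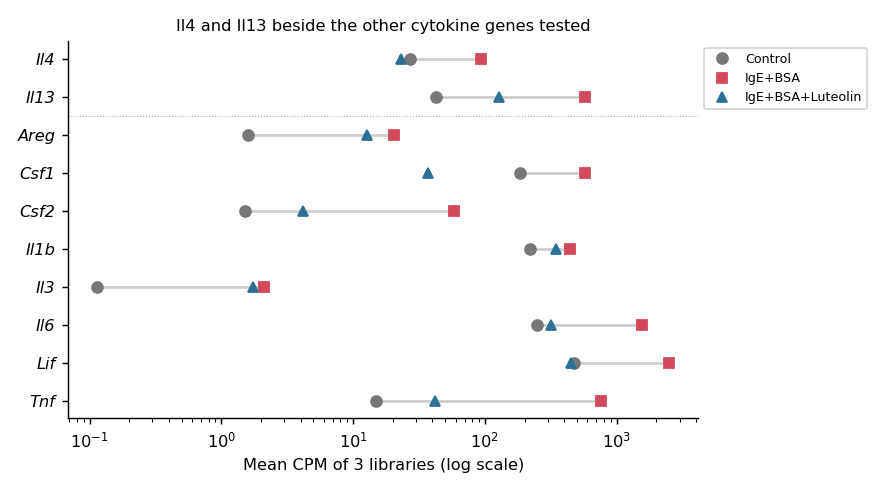
Mean TMM-normalized CPM of 3 libraries (log axis) for Il4, Il13 and the 8 other cytokine genes tested, with Control as circles, IgE+BSA as squares and IgE+BSA+Luteolin as triangles, and a grey line joining Control and IgE+BSA. Il4 with luteolin (22.9 CPM) lies beside its Control mean (27.2 CPM), and Il13 (127.7 CPM) lies between Control (42.7 CPM) and IgE+BSA (579.5 CPM).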

How the data were processed

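Stranded mRNA libraries of 9 BMMC samples were sequenced by the authors, who filtered reads with HTStream and aligned them to mm10 with STAR 2.7.0f. The deposited values were raw counts per Ensembl gene, with no normalization. Column names carry the ending of HTSeq, but the annotation release, strand setting and treatment of multi-mapping reads are not given in the sources used here. Genes were named from GENCODE vM21, which matched 47224 of the 47643 identifiers.

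Groups were taken from the labels. Genes with a median CPM above 1 over all libraries (11560) were kept, and TMM factors and the quasi-likelihood test of edgeR 4.0.16 (R 4.3.3) were applied to the 6 libraries of each of 3 comparisons, with Benjamini-Hochberg adjustment over all genes of a fit and a threshold of 0.05. Genes below that filter were taken from a fit of genes with at least 20 counts in total. CPM values were scaled by TMM factors, and RPKM used merged exon lengths. The tests were checked on simulated counts with a spread taken from the stimulated libraries, so the check did not cover the wider spread among the Control libraries. The Il13 to Il4 ratio used counts plus 0.5 and an exact permutation test. DESeq2 1.42.0, limma 3.58.1, other scalings and filters, and leaving out each library served as alternatives. Depth was 9515004 to 24605689 counts per library, and intervals cover counting error only. Nothing states that replicates came from separate mice or cultures, so p-values measure the spread between these samples, which may be technical.

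The 4 genes and all gene lists (receptors, JAK-STAT genes, transcription factors, inducing receptors, other cytokines, markers, and neighbours within 200 kb) were chosen with earlier results of these data known. From each list, counts called are given with values for up to 4 genes in a comparison, those with the largest changes among the called, besides direct receptors or regulators of the cytokines and genes already named in another comparison. For likeness, genes with a mean CPM of at least 1 were ranked by Pearson r of log2(CPM + 1), for cytokines with at least 100 counts.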

Additional observations from a re-analysis of the deposited data

How the results depend on the processing

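The direction and call of Il4 held in all 45 alternative fits. For Il13, 40 of 45 gave the same call, and the other 5 all concern IgE+BSA+Luteolin against Control, where it passed the threshold with DESeq2 (log2 difference 1.58, adjusted p = 0.00117), with all 9 libraries in one fit (1.57, adjusted p = 0.0195), without a filter beyond 1 count (1.62, adjusted p = 0.00208), with a replicate block (1.74, adjusted p = 0.0485) and without Control replicate 1. Leaving out 1 library at a time moved this Il13 value between 1.30 and 2.24, and over all its alternatives the adjusted p ran from 1.63e-11 to 0.288. For Il9, limma on log2 CPM called the fall with luteolin (-1.53, adjusted p = 0.0460, range over its alternatives 0.0460 to 0.334), leaving out libraries gave -2.23 to -0.97, and its difference between IgE+BSA and Control turned from negative to 0.052 without IgE+BSA replicate 3 (-0.43 to 0.052 over libraries left out). Its difference between IgE+BSA+Luteolin and Control ran from -2.46 to -1.21 over libraries left out. The causes were not tested. Il5 had a value only without a filter, with edgeR adjusted p of 0.832, 0.610 and 0.974 in the 3 comparisons.

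The number of genes called between IgE+BSA and Control was 378 and became 1227 with DESeq2, 1105 with all 9 libraries, 144 with the replicate block and 604 without a filter beyond 1 count, and ran from 90 to 5207 when 1 library was left out, the highest without Control replicate 1. For IgE+BSA+Luteolin against Control it was 351 and became 1379, 1251, 212 and 793 in that order, and ran from 2 to 6931, the highest again without Control replicate 1. For IgE+BSA+Luteolin against IgE+BSA it was 4624 and became 1093 with all 9 libraries and 5582 with the replicate block. Scaling by library size alone moved the higher and lower calls to 173 and 291 for IgE+BSA against Control, and to 3857 and 1767 for IgE+BSA+Luteolin against IgE+BSA, with the median of all genes at -0.15 and 0.13. With upper-quartile scaling they were 199 and 181, and 3267 and 2019. Same-numbered libraries had correlations of deviations from the group means between -0.315 and 0.377, and differently numbered ones between -0.359 and 0.344. With 3 libraries per group this cannot settle whether the replicate numbers pair the samples. The block changed no other call of Il4, Il13 or Il9.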

Other observations

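3 further cytokine genes below the CPM filter were singled out after their values were seen. Il31, an itch cytokine of type 2 immunity, had 0 counts in Control, 51 counts in IgE+BSA and 3 counts with luteolin, each summed over 3 libraries. The absence of counts in Control replicates 1, 2 and 3 allows up to 0.147, 0.315 and 0.134 CPM. Tslp, an epithelial cytokine that acts on type 2 cells, had 45, 104 and 30 counts, and Il33, the ligand of the receptor encoded by Il1rl1, had 2, 16 and 3 counts in Control, IgE+BSA and IgE+BSA+Luteolin. No test is given, since the genes were picked on these values and Il31 passed a filter of 20 counts only through the IgE+BSA libraries.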
